A study of Mus musculus with 45 samples.

Results

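Txnip, its 4 arrestin-domain relatives Arrdc1, Arrdc2, Arrdc3 and Arrdc4, and the antisense transcript Gm15441 were followed across 45 mouse liver libraries. They are 6 of the 23227 genes in the deposited count tables, found by their symbols. Txnip was chosen by its lower counts after insulin and Gm15441 by its lower counts with the high-fat diet. The values of these 2 genes in insulin and diet comparisons are therefore given as a description with no test. No measured value was given as the reason for the Arrdc genes. The 4 Arrdc genes were tested in every comparison, and all 6 genes were tested for metformin within a diet. For those tests of Txnip and Gm15441, the basal libraries are also those of the comparisons that chose them.

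Every mouse was a wild-type C57BL/6J animal of 24 weeks, killed after an overnight fast. Chow mice ate a standard diet (Prolab Isopro RMH 3000), and the others ate a high-fat diet (HFD; S3282, Bioserve) for 6 weeks from 18 weeks of age or for 16 weeks from 8 weeks of age. Basal livers came from mice given neither drug, and no injection is stated for them. Insulin livers came from chow or 16-week HFD mice that received 1 U/kg of insulin into the peritoneum and were killed 15, 30, 60 or 120 min later. Metformin livers came from mice of all 3 diets that drank metformin at 270 mg/kg of lean body mass per day, begun at 8 or 18 weeks of age. This makes 14 groups of 3 libraries, except 6 libraries at 30 min on 16-week HFD. The submitters state at least 3 mice per group, but no label ties a library to a mouse, so p-values measure only the spread between libraries. Whole liver was sequenced, so fewer cells of a type and less RNA per cell cannot be told apart.

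Txnip encodes an alpha-arrestin that binds reduced thioredoxin and lowers glucose uptake by promoting internalisation of glucose transporters. Its gene is a textbook target of the glucose-sensing factors ChREBP and MondoA, which bind paired E-boxes. Arrdc1 to Arrdc4 share the arrestin fold but not the thioredoxin-binding function, and they are adaptors that bring NEDD4-family ubiquitin ligases to membrane cargo. Arrdc3 is known for acting on the beta-2 adrenergic receptor and Arrdc4, like Txnip, for responding to glucose. Gm15441 is a noncoding RNA read from the opposite strand across Txnip.

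Txnip lies on chromosome 3, chr3:96361880-96365780 on the plus strand of mm9, with 8 exons of 2801 bases in all. Gm15441 lies at chr3:96359691-96370724 on the minus strand, with 4 exons of 1673 bases. Their exons share 606 bases, which are 21.64% of the Txnip exon bases and 36.22% of those of Gm15441. The first shared stretch, chr3:96361880-96362320, has 441 bases and begins at the Txnip start, and 162 of them code for protein. The second, chr3:96363601-96363765, has 165 bases, all of them Txnip coding sequence. The libraries do not mark strand, so reads from these stretches cannot be assigned to one gene or the other. The Gm15441 exon that covers the Txnip start runs from -671 to 440 relative to it, so it also spans the 250 bases before Txnip.

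**Figure D1:**
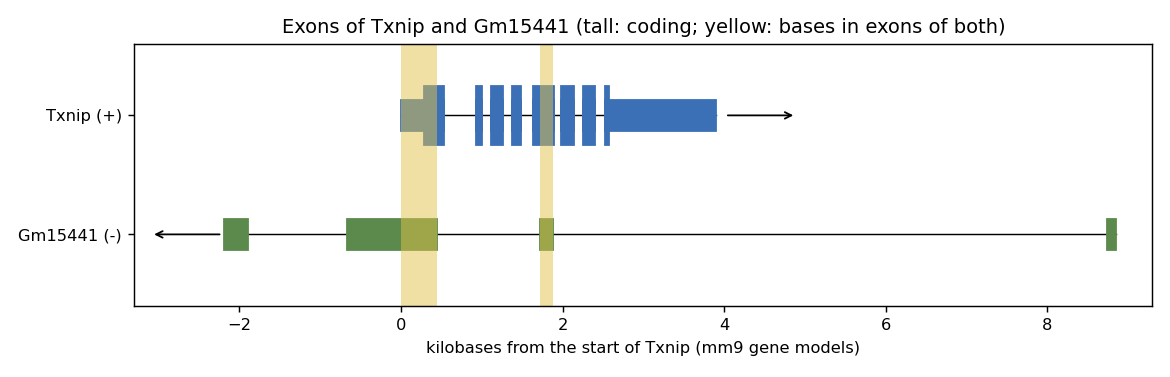
Exons of Txnip and Gm15441 along the mm9 gene models, in kilobases from the Txnip start. Boxes are exons, tall boxes are coding parts, arrows show the direction of reading, and the yellow bands mark the shared stretches of 441 and 165 bases.

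The second stretch is shown because it is a whole Gm15441 exon that lies inside a longer Txnip coding exon. It is printed from exon 2 of an annotated Gm15441 transcript (GRCm38 chr3:96559678-96559842, minus strand), and then as its reverse complement, which occurs in a Txnip transcript. The letters are in lower case throughout, since no part of the exon is singled out.

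Gm15441 strand: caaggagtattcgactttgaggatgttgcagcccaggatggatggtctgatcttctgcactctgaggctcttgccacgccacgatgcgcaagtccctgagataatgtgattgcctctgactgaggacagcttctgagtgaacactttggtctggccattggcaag
Txnip strand: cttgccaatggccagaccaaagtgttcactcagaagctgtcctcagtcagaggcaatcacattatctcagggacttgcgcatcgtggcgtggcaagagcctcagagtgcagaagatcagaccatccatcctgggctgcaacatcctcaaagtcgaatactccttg

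The promoters of Txnip and Arrdc4 are shown because these are the glucose-responsive family members by background and because Arrdc4 had the largest number of called tests below. RefSeq promoters (GRCm38.p6) matched 5 of the 6 genes, and none was matched for Gm15441. The 250 bases before each start are given 5′ to 3′ on the gene's strand, for Txnip chr3:96557707-96557956 (plus) and for Arrdc4 chr7:68749239-68749488 (minus). Capitals mark matches on either strand to 4 motifs. The first is the E-box, CACGTG. Another is a paired E-box-like motif, in which a CACGNG is followed after 5 bases of any kind by a second CACGNG. The forkhead motif searched was GTAAACA. The CCAAT box is named by its letters and reads ATTGG where it lies on the other strand. None of the marked matches overlap each other.

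Txnip promoter: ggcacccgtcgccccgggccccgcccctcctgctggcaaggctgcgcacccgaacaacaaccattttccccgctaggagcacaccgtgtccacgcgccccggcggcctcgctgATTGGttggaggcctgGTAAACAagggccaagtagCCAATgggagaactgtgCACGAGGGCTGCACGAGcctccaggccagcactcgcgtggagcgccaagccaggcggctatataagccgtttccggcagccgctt
Arrdc4 promoter: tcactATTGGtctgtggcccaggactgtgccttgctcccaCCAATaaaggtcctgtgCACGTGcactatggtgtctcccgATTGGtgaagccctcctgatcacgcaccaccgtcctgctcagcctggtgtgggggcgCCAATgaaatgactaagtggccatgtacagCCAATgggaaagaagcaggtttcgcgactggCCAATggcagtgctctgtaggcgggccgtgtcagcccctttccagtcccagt

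The Txnip window held the paired E-box-like motif at -85 to -69, a motif found in 15 of 32851 promoters (0.0457%). It also held GTAAACA at -121 to -115, found in 3.17% of promoters, and CCAAT boxes at -102 to -98 and -137 to -133. The Arrdc4 window held CACGTG at -193 to -188, found in 6.02% of promoters, and 6 CCAAT boxes. CCAAT occurred in 33.8% of promoters, among them that of Arrdc2 with 3 matches and that of Arrdc3 with 1. The Arrdc1 window held none of the 4 motifs. These are matches of letters and not measured binding sites.

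The other genes lie on other chromosomes in mm9: Arrdc1 at chr2:24780872-24790801 (minus), Arrdc2 at chr8:73359037-73363619 (minus), Arrdc3 at chr13:81022683-81035303 (plus) and Arrdc4 at chr7:75881880-75894124 (minus). In the GRCm38 transcripts, no 40-base word of Arrdc1 to Arrdc4 transcripts occurred in another gene's transcripts. In Txnip 16.45% of such words did, all shared with Gm15441. In Gm15441 32.83% did, and the genes with the most matches were Txnip, Gm10505, Ncf1 and Gm17420.

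Library totals ran from 18193181 to 50253493 counted reads. All 6 genes passed the filter on low counts, as did 14067 genes in all. The summed level of 9 hepatocyte markers was 81654 to 175270 CPM (the counts-per-million scale, after TMM scaling) in every library. Markers of pancreatic acinar cells summed to 7.42 to 19323 CPM, of skeletal muscle to 0 to 1284 CPM and of Kupffer cells and macrophages to 136 to 1048 CPM. The haemoglobin genes Hba-a1, Hba-a2, Hbb-b1 and Hbb-b2 were listed at 0 in all libraries. The part of these other tissues in the results below was not tested unless a value is given.

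Per kilobase of exon, Txnip and Arrdc3 were the most abundant of the 6 genes. Median RPKM over the 45 libraries was 41.3 for Txnip (14.2 to 124), 37.7 for Arrdc3 (3.99 to 77.3) and 9.57 for Arrdc2 (3.56 to 26.9). It was 4.40 for Gm15441 (0.584 to 36.8), 2.67 for Arrdc4 (1.84 to 4.65) and 1.64 for Arrdc1 (1.12 to 2.21). Gm15441 ranged most widely, by 63.1-fold between its lowest and highest library, against 19.4-fold for Arrdc3, 8.71-fold for Txnip, 7.55-fold for Arrdc2, 2.52-fold for Arrdc4 and 1.98-fold for Arrdc1. Counts behind these levels were 887 to 10149 reads for Txnip, 24 to 2243 for Gm15441 and only 37 to 145 for Arrdc1.

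In chow livers Txnip was lowest 30 and 60 min after insulin. Basal chow livers had 141, 247 and 247 CPM, and 15 min after insulin the values were 195, 319 and 346 CPM. At 30 min they were 39.8, 41.6 and 47.4 CPM. All 3 libraries at 30 min lay below the lowest basal library, and the 3 libraries stood close together, at 42.9 ± 3.97 CPM (SD, n = 3) against 212 ± 61.6 CPM (SD, n = 3). The 30 min mean was 4.93-fold lower, a log2 difference of -2.30 ± 0.26 (SE). At 60 min the values were 58.5, 54.0 and 49.9 CPM, 3.91-fold lower than basal (log2 -1.97 ± 0.26). All 3 again lay below every basal library, and all 3 lay above the 30 min libraries. At 120 min the libraries spread from 93.3 to 250.3 CPM and overlapped the basal range (log2 -0.37 ± 0.25), a difference that ran from -0.81 without replicate 1 to -0.09 without replicate 3 of that time. At 30 min, 10 of 14067 genes were called different from basal (0.0711%, edgeR's quasi-likelihood test, Benjamini-Hochberg adjusted p below 0.05). That share is the background of the contrast that chose Txnip.

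On 16-week HFD the difference after insulin was smaller. Basal livers had 118, 131 and 117 CPM of Txnip, and 15 min after insulin the values were 129, 105 and 140.3 CPM. At 30 min the 6 libraries ran from 61.4 to 72.6 CPM with a median of 70.6 CPM, all below the basal libraries, 1.77-fold lower in the mean (log2 -0.82 ± 0.21). At 60 min the values were 58.5, 103 and 97.4 CPM, below the basal range (log2 -0.50 ± 0.25), and replicate 1 stood apart from the other 2, without which the difference was -0.29. At 120 min they were 141, 131 and 144 CPM, the lowest of them level with the highest basal library (log2 0.18 ± 0.25). The response on 16-week HFD minus that on chow was 1.48 ± 0.34 at 30 min and 1.47 ± 0.35 at 60 min on the log2 scale. It was -0.40 ± 0.35 at 15 min, and -0.62 without chow replicate 1, -0.25 without chow replicate 3 of that time and -0.18 without basal chow replicate 1. At 120 min it was 0.55 ± 0.35, and 0.99 without chow replicate 1 and 0.27 without chow replicate 3 of that time. Both insulin-treated diets are set against their own basal group, and the diet comparisons below reuse those basal libraries.

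Diet alone went with lower Txnip in fasted livers. On 6-week HFD the basal values were 144, 136 and 98.5 CPM, 1.68-fold lower than on chow in the mean (log2 -0.75 ± 0.25), and replicate 1 of that group lay above the lowest chow library. On 16-week HFD all 3 basal libraries lay below the chow range, 1.74-fold lower in the mean (log2 -0.80 ± 0.25). After 30 min of insulin the order of the diets was the other way round, with every 16-week HFD library above every chow library (log2 0.69 ± 0.22). Ordered over the 14 groups, Txnip was highest in chow livers at 15 min (287 CPM), then in basal chow livers (212 CPM). It was lowest at 30 min on chow, next at 60 min on chow and then at 30 min on 16-week HFD (69.0 CPM). Only these last 3 neighbours were separated from each other, and the other 11 neighbouring pairs overlapped.

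**Figure D2:**
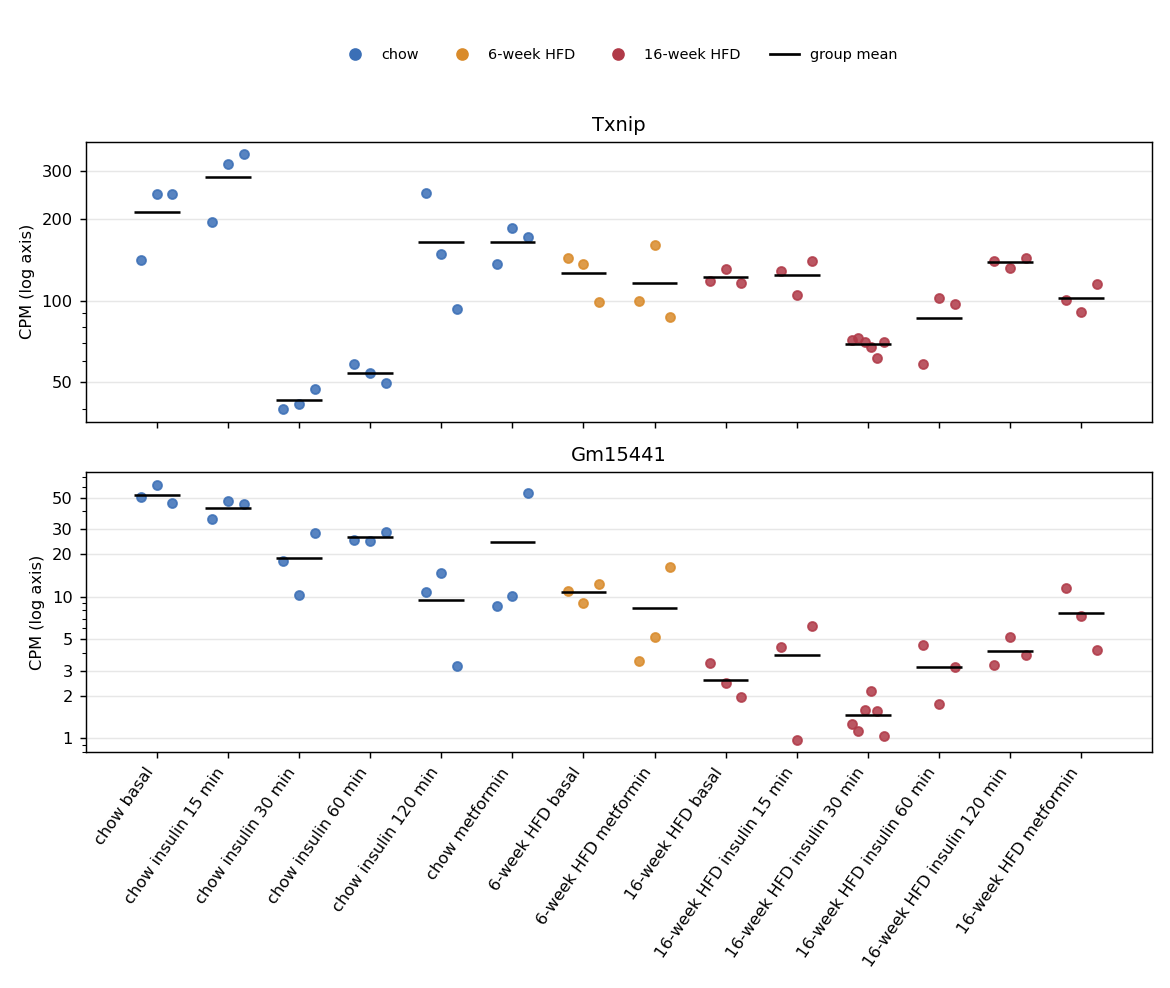
CPM of Txnip (top) and Gm15441 (bottom) on log axes in the 14 groups, 1 point per library, with the group mean as a bar and diets in colour. Txnip lay between 39.8 and 72.6 CPM at 30 min on both diets, while Gm15441 lay at 0.976 to 6.22 CPM in the basal and insulin groups of 16-week HFD and at 45.9 to 61.6 CPM in basal chow livers.

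Gm15441 was lower in fasted livers on either HFD. Basal chow livers had 50.5, 61.6 and 45.9 CPM. On 6-week HFD the basal values were 11.0, 8.996 and 12.3 CPM, and on 16-week HFD they were 3.41, 2.45 and 1.94 CPM. The 3 basal ranges did not overlap, and they descended with the length of the diet. Against chow, the mean was 4.88-fold lower after 6 weeks (log2 -2.29 ± 0.54) and 20.3-fold lower after 16 weeks (log2 -4.34 ± 0.62), and 16 weeks stood 4.16-fold below 6 weeks (log2 -2.06 ± 0.59). Summed pancreatic acinar markers were 303 to 1840 CPM in basal chow livers, 13.0 to 142 CPM on 6-week HFD and 9.92 to 180 CPM on 16-week HFD. None of these 10 acinar markers was called in either comparison with chow. Of 7 skeletal muscle markers 6 were lower on 16-week HFD than on chow, with a summed level of 0.265 to 152 CPM on chow and 0.132 to 0.184 CPM on 16-week HFD. On 6-week HFD, where the sum was 3.35 to 1284 CPM, 1 was higher. Of all genes, 32.3% were called against chow on 16-week HFD and 11% on 6-week HFD. The part of these tissues in the Gm15441 and Arrdc4 differences between diets was not tested.

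After insulin on chow, Gm15441 was lowest at 120 min, when Txnip again overlapped its basal range. The values were 35.7, 47.4 and 44.9 CPM at 15 min, 17.9, 10.3 and 28.2 CPM at 30 min and 25.3, 24.7 and 28.7 CPM at 60 min. At 120 min they were 10.8, 14.6 and 3.26 CPM. The libraries at 30, 60 and 120 min all lay below the basal range, with log2 differences of -1.49 ± 0.53, -1.01 ± 0.52 and -2.45 ± 0.55. On 16-week HFD, where basal levels were already low, the differences from basal were 0.58 ± 0.63 at 15 min, -0.83 ± 0.58 at 30 min, 0.29 ± 0.64 at 60 min and 0.66 ± 0.63 at 120 min. At 15 min single libraries moved it from 0.06 (without replicate 3) to 1.04 (without replicate 2), and at 60 min it was -0.05 without replicate 1. The 6 libraries at 30 min ran from 1.03 to 2.17 CPM with a median of 1.42 CPM, and at each of the 4 times the insulin libraries overlapped the basal ones. The response on 16-week HFD minus that on chow was 3.11 ± 0.83 at 120 min. After insulin Gm15441 remained lower on 16-week HFD than on chow, with log2 differences of -3.46 ± 0.59, -3.68 ± 0.50, -3.05 ± 0.60 and -1.23 ± 0.58 at 15, 30, 60 and 120 min, and the ranges overlapped only at 120 min, where the difference was -0.81 without chow replicate 2.

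The count of Gm15441 set against that of Txnip in the same library shows that the 2 transcripts did not keep a fixed ratio. It was 18.6%, 24.9% and 35.9% in basal chow livers, ordered by size. It was 24.8% to 59.6% at 30 min and 43.2% to 57.6% at 60 min on chow, when Txnip was low, and 3.49% to 9.87% at 120 min. On 16-week HFD it was 1.66% to 2.89% in basal livers. The lowest ratio of all was 0.928%, from 24 reads of Gm15441 beside 2586 of Txnip in the library of replicate 2 at 15 min on 16-week HFD. In that library, reads of Txnip counted as Gm15441 can have been at most that share of the Txnip count. How the counting tool treated reads that fall on both genes is not given in the sources used here.

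**Figure D3:**
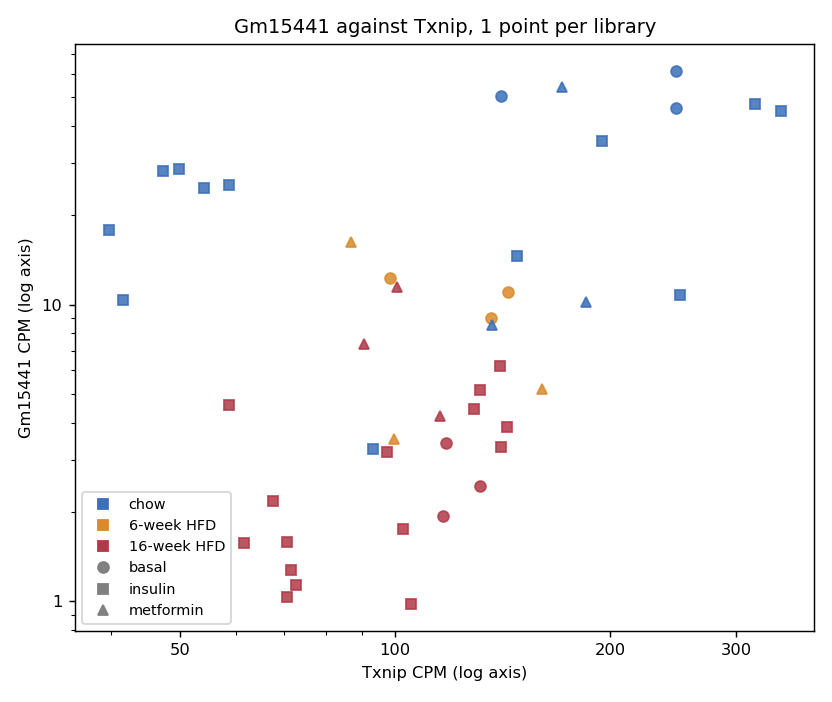
CPM of Gm15441 against CPM of Txnip on log axes, 1 point per library, with diet in colour and treatment by shape. Chow libraries at 30 and 60 min of insulin sit at low Txnip (39.8 to 58.5 CPM) with 10.3 to 28.7 CPM of Gm15441, and basal 16-week HFD libraries sit at 117 to 131 CPM of Txnip with 1.94 to 3.41 CPM of Gm15441.

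Across the 14 group means of log2 CPM, Txnip and Gm15441 had a Pearson correlation of 0.30, and 0.33 across the 45 libraries. Gm15441 and Arrdc4 had 0.81 and 0.64. Arrdc4 and Arrdc2 had -0.52 and -0.50. Txnip with any of Arrdc1 to Arrdc4 stayed between -0.20 and 0.16 over the group means. These coefficients describe points that share libraries, depth and basal groups, and no p is attached to them.

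Among the Arrdc genes, Arrdc3 had the widest swing with insulin on chow. Basal chow livers had 111, 125 and 102 CPM, and at 15 min the values were 67.8, 119 and 73.3 CPM. At 30 min they were 163, 158 and 173 CPM, all above the basal libraries. At 60 min they were 17.2, 39.9 and 36.7 CPM and at 120 min 66.1, 16.3 and 27.8 CPM, all below them. From 30 to 120 min Arrdc3 fell 4.46-fold on chow (log2 -2.16 ± 0.53, edgeR adjusted p = 0.0234), where 1.62% of all genes were called in that comparison. This was the only call among the 4 Arrdc genes there. It was lost without replicate 1, 2 or 3 of the 30 min group (adjusted p = 0.0604, 0.0543 and 0.0769) and without replicate 2 or 3 of the 120 min group (0.188 and 0.134), and the range over all 15 alternatives was 0.00435 to 0.188.

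Against basal livers, the Arrdc3 differences on chow did not pass the test. They were -0.38 ± 0.51 at 15 min, 0.55 ± 0.51 at 30 min (edgeR adjusted p = 0.874), -1.85 ± 0.53 at 60 min (0.0680) and -1.61 ± 0.52 at 120 min (0.0640). DESeq2 called the differences at 60 min (adjusted p = 0.0270) and 120 min (0.0370), as did edgeR on the groups compared alone at 60 min (0.0328) and limma on the deposited normalized values at 120 min (0.0406). Over the alternatives, the edgeR, DESeq2 and limma adjusted p ran from 0.0270 to 0.386 at 60 min and from 0.0136 to 0.293 at 120 min. Without replicate 1 at 120 min the difference was -2.36 with an edgeR adjusted p of 0.0136. At 30 min, fitting the groups compared alone gave an edgeR adjusted p of 0.0464, in a range of 0.0464 to 1.00. The 120 min libraries thus overlapped neither the basal nor the 30 min libraries, but the spread of Arrdc3 over the whole data set was wide.

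On 16-week HFD Arrdc3 did not show the low values at 60 min in every library. Basal livers had 173, 176 and 227 CPM, and at 15 min the values were 179, 174 and 101 CPM. The 6 libraries at 30 min ran from 114 to 168 CPM with a median of 147 CPM, all below the basal ones. At 60 min the values were 21.6, 216 and 316 CPM, so replicate 1 lay near the chow libraries of that time and the other 2 did not. At 120 min they were 177, 57.7 and 82.2 CPM. The differences from basal were -0.34 ± 0.51, -0.44 ± 0.43, -0.06 ± 0.51 and -0.86 ± 0.51 at the 4 times, and none was called. Set directly against chow, Arrdc3 was higher on 16-week HFD by 5.91-fold at 60 min (log2 2.56 ± 0.54, edgeR adjusted p = 0.000758) and by 2.86-fold at 120 min (log2 1.52 ± 0.52, adjusted p = 0.0273). At these times 22.4% and 28.2% of all genes were called. The ranges of the diets overlapped at both times.

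The 60 min call was lost in a fit of only the 2 groups (adjusted p = 0.0778, range over 14 alternatives 9.31e-06 to 0.0778). The 120 min call was lost in the fit of only the 2 groups (0.0771), without replicate 2 or 3 of the chow group (0.146 and 0.105) and without replicate 1 of the HFD group (0.230), in a range of 0.00584 to 0.230. Without that HFD library the difference was 0.92. In basal livers Arrdc3 had 294, 203 and 186 CPM on 6-week HFD, and all 3 libraries of either HFD group lay above the chow range. Those differences were 1.01 ± 0.51 after 6 weeks (edgeR adjusted p = 0.217) and 0.77 ± 0.51 after 16 weeks (0.260). They were called only when the basal groups were fitted alone, with adjusted p of 0.0107 and 0.00317, in ranges of 0.0107 to 0.475 and 0.00317 to 0.445. The response to insulin on 16-week HFD minus that on chow was 1.79 ± 0.73 at 60 min (edgeR adjusted p = 0.284), so a difference in the insulin response itself was not called.

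**Figure D4:**
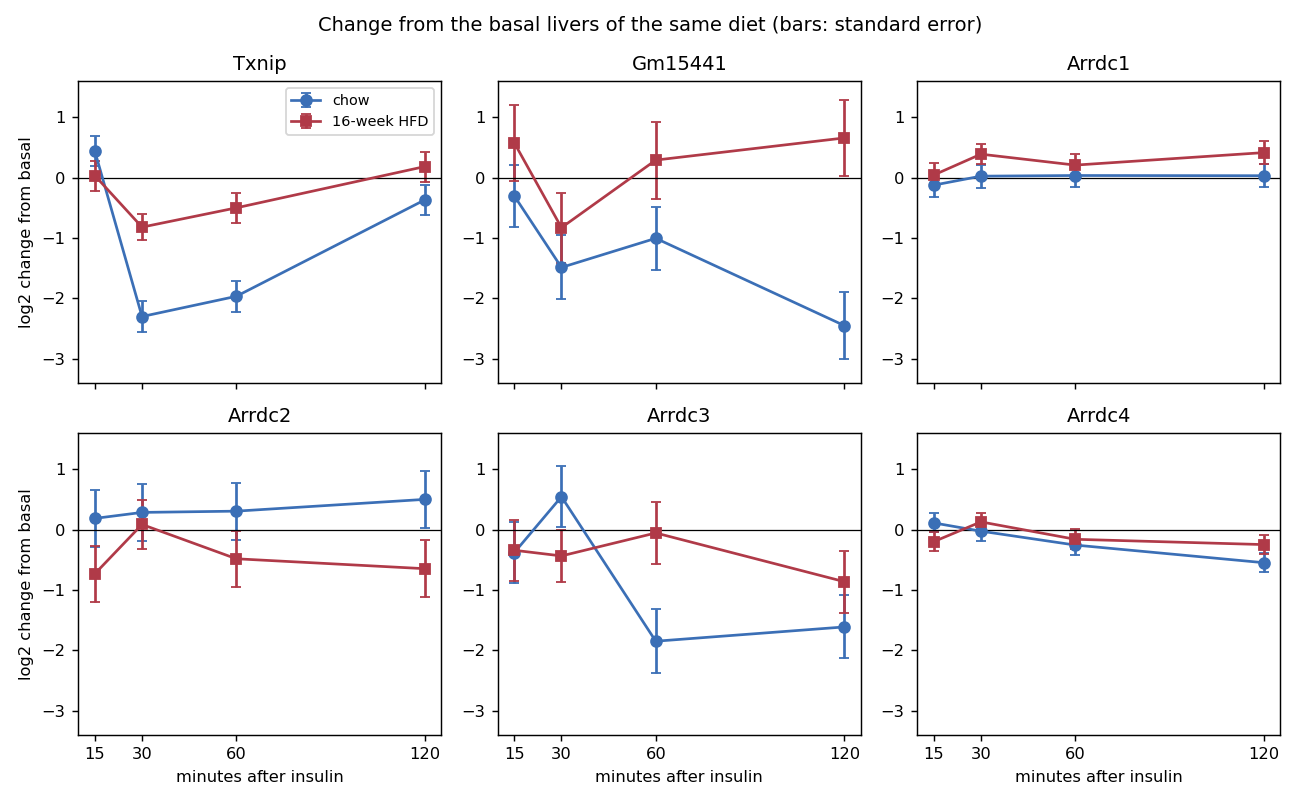
Log2 change from the basal livers of the same diet at 15, 30, 60 and 120 min after insulin for the 6 genes, with standard errors, on chow (circles) and 16-week HFD (squares). Txnip reached -2.30 at 30 min on chow against -0.82 on 16-week HFD, while Arrdc4 went no further than -0.55, at 120 min on chow.

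Arrdc4 was lower on 16-week HFD than on chow in basal livers. Basal chow livers had 14.5, 17.0 and 15.8 CPM and basal 16-week HFD livers 8.99, 10.1 and 10.5 CPM, with no overlap. Arrdc4 fell 1.59-fold on 16-week HFD (log2 -0.67 ± 0.16, edgeR adjusted p = 0.0015), a comparison in which 32.3% of all genes were called. The call held in all 15 alternatives, with adjusted p of 0.000495 to 0.0114. On 6-week HFD the values were 11.96, 10.5 and 15.9 CPM and overlapped the chow range (log2 -0.30 ± 0.16, adjusted p = 0.238), where 11% of all genes were called. Between 16 and 6 weeks the difference was -0.37 ± 0.16 (adjusted p = 0.133), with 10.2% of all genes called. Of the 12 tests of the 4 Arrdc genes between diets in basal livers, this was the 1 call.

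Arrdc4 was also lower on 16-week HFD after insulin. At 15 min chow livers had 16.5, 18.0 and 16.5 CPM and 16-week HFD livers 7.29, 8.79 and 9.78 CPM. The 2 diets stood well apart, and the fall was 1.98-fold (log2 -0.98 ± 0.16, edgeR adjusted p = 4.9e-05), with 24.4% of all genes called at that time. It held in all 14 alternatives (adjusted p = 3.26e-07 to 0.0022). Summed pancreatic acinar markers at 15 min were 162 to 2811 CPM on chow and 14.2 to 19323 CPM on 16-week HFD. Their part in this difference was not tested. At 30 min chow livers had 13.6, 14.5 and 18.4 CPM, and the 6 HFD libraries ran from 8.98 to 14.4 CPM with a median of 10.1 CPM. The ranges overlapped, and the fall was 1.43-fold (log2 -0.52 ± 0.14, adjusted p = 0.00333), with 37.3% of all genes called. At 60 min chow livers had 13.97, 14.3 and 11.2 CPM and HFD livers 8.21, 10.7 and 7.68 CPM, a fall of 1.49-fold (log2 -0.58 ± 0.16, adjusted p = 0.00983).

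The 30 min call was lost without replicates 4 to 6 of the HFD group (log2 -0.36, edgeR adjusted p = 0.0670), without chow replicate 3 (-0.38, 0.0567) and with the replicate number as a block (-0.35, 0.0699), in a range of 0.000637 to 0.0699. The 60 min call was lost without HFD replicate 3 (adjusted p = 0.0623) and in the fit of only the 2 groups (0.0638), in a range of 0.0048 to 0.0638. At 120 min chow livers had 10.6, 10.1 and 11.7 CPM and HFD livers 8.26, 8.75 and 7.98 CPM. These ranges did not overlap, but the difference of -0.37 ± 0.16 was not called (adjusted p = 0.0866, range 0.0265 to 0.228). It was called when the groups compared were fitted alone (0.0265), with the length trend removed (0.0472), with that and the replicate block (0.0457) and with length and GC trends removed (0.0478). Altogether 5 of the 16 tests of Arrdc genes between the diets after insulin were called, 3 lower for Arrdc4 and 2 higher for Arrdc3. This count is near the shares of all genes called, 24.4%, 37.3%, 22.4% and 28.2% at 15, 30, 60 and 120 min.

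After insulin on chow, Arrdc4 fell at 120 min. It was 1.46-fold below basal (log2 -0.55 ± 0.16, edgeR adjusted p = 0.0380), with no overlap between the groups and 5.08% of all genes called. The call depended on every library: without any 1 of the 6 the adjusted p was 0.0531 to 0.165, and without a filter on low counts it was 0.0567. Over all 15 alternatives the adjusted p was 0.0222 to 0.165. This was the 1 call among 16 tests of Arrdc genes after insulin on chow, where 1.13%, 0.0711% and 1.39% of all genes were called at 15, 30 and 60 min. At 15, 30 and 60 min the Arrdc4 differences were 0.11 ± 0.16, -0.03 ± 0.16 and -0.26 ± 0.16. From 30 to 120 min Arrdc4 differed by -0.52 ± 0.16 on chow (adjusted p = 0.0953) and by -0.38 ± 0.14 on 16-week HFD (0.169), where 1.98% of all genes were called. On 16-week HFD, without replicates 4 to 6 at 30 min, that difference was -0.53 with an edgeR adjusted p of 0.0338, and with the replicate number as a block it was -0.54 with 0.0329, in a range of 0.0291 to 0.468.

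After insulin on 16-week HFD, edgeR called 0 of 16 tests of the Arrdc genes. At an unadjusted p below 0.05 there were 2, and DESeq2 called 0. The shares of all genes called at 15, 30, 60 and 120 min were 0%, 3.55%, 0.00711% and 0%. The difference between the diets in the response to insulin was also called in 0 of 16 tests by edgeR and by DESeq2, with 1 at an unadjusted p below 0.05, and the shares of all genes were 0.00711%, 0%, 0% and 0.839%. For Arrdc4 the 95% interval of that difference was -0.26 to 0.57 at 30 min and -0.15 to 0.75 at 120 min on the log2 scale. For Arrdc3 it was wider, -2.29 to 0.33 at 30 min and 0.37 to 3.22 at 60 min.

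**Figure D5:**
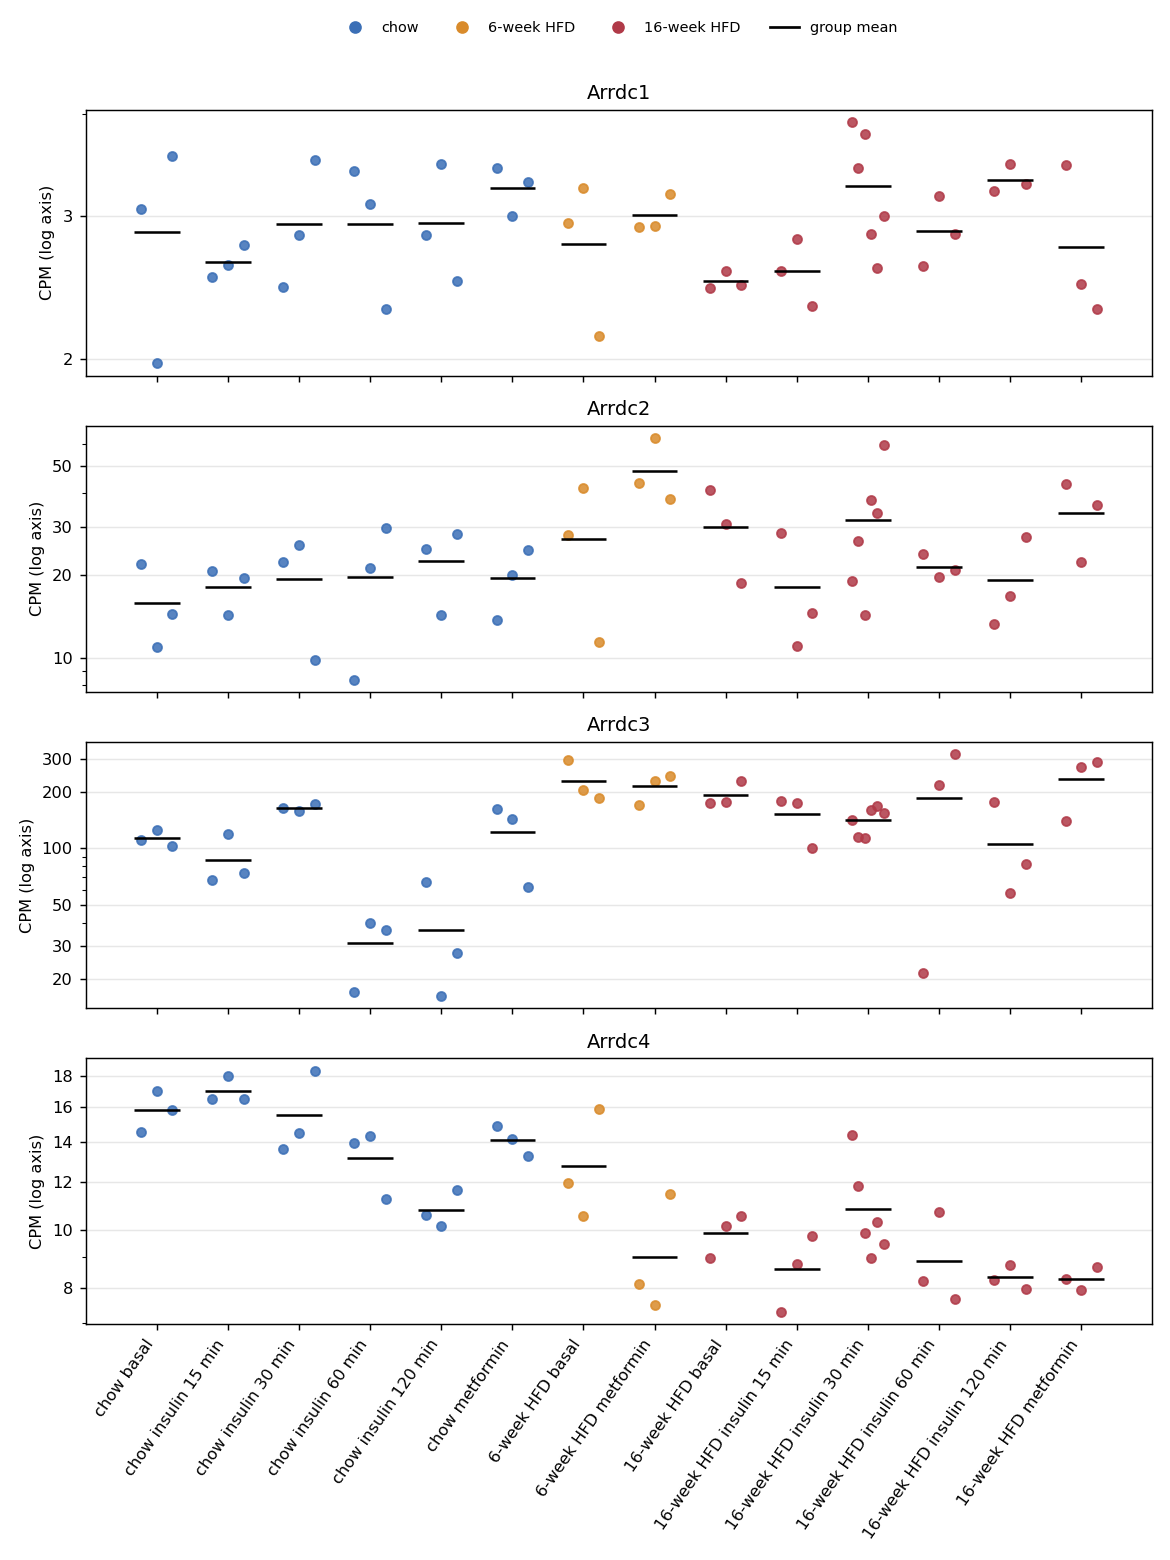
CPM of Arrdc1, Arrdc2, Arrdc3 and Arrdc4 on log axes in the 14 groups, 1 point per library, with the group mean as a bar and diets in colour. Arrdc4 lay at 14.5 to 17.0 CPM in basal chow livers and 8.99 to 10.5 CPM in basal 16-week HFD livers, and Arrdc3 had 1 library at 21.6 CPM and 2 above 200 CPM at 60 min on 16-week HFD.

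Arrdc1, which is known for forming extracellular vesicles with Tsg101, was the flattest of the genes. Its group means ran from 2.49 CPM in basal 16-week HFD livers to 3.33 CPM at 120 min of insulin on that diet, and every neighbouring pair of groups overlapped. At 30 min on 16-week HFD replicates 1 to 3 had 3.92, 3.44 and 3.79 CPM and replicates 4 to 6 had 2.85, 2.59 and 3.003 CPM, with no overlap between them. The basal values were 2.44, 2.56 and 2.47 CPM, below all 6. The difference was 0.39 ± 0.17 with an edgeR adjusted p of 0.156, and without replicates 4 to 6 it was 0.58 with 0.0345 and with the replicate number as a block 0.57 with 0.0414, in a range of 0.0226 to 0.460. The rank correlation of log CPM deviation with GC content was 0.19 to 0.21 in replicates 1 to 3 and -0.21 to -0.13 in replicates 4 to 6. The part of GC content in the Arrdc1 values was not tested, beyond the trend-corrected fits in that range.

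Arrdc2 spread widely among libraries of the same group. Basal chow livers had 21.9, 11.0 and 14.5 CPM, 6-week HFD livers 28.0, 41.7 and 11.4 CPM and 16-week HFD livers 40.8, 30.7 and 18.7 CPM. The differences from chow, 0.76 ± 0.47 and 0.91 ± 0.47, were not called (edgeR adjusted p = 0.329 and 0.137), and the ranges overlapped. At 30 min on 16-week HFD replicates 1 to 3 ran from 14.3 to 26.7 CPM and replicates 4 to 6 from 33.8 to 59.4 CPM. The difference from basal was 0.09 ± 0.40 with all 6 libraries and -0.58 without replicates 4 to 6, so its direction depended on those libraries. Over the 14 groups its mean was highest with metformin on 6-week HFD (48.1 CPM) and lowest in basal chow livers (15.8 CPM), and every neighbouring pair overlapped.

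Over the 14 groups Arrdc3 was highest with metformin on 16-week HFD (232 CPM) and lowest at 60 min of insulin on chow (31.3 CPM). The only separated neighbours were chow at 15 min (86.6 CPM) and chow at 120 min (36.7 CPM). Arrdc4 was highest on chow at 15 min (17.0 CPM) and lowest with metformin on 16-week HFD (8.29 CPM), with every neighbouring pair overlapping. Gm15441 was highest in basal chow livers (52.7 CPM) and lowest at 30 min on 16-week HFD (1.46 CPM), and only chow at 15 min and chow at 60 min were separated neighbours.

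Metformin, a biguanide given as a glucose-lowering drug, gave no call for the 6 genes against basal livers of the same diet. By edgeR 0 of 18 tests were called, where 1.94% of all genes were called on chow, 3.17% on 6-week HFD and 28.4% on 16-week HFD. At an unadjusted p below 0.05 there were 3, and DESeq2 called 1. Txnip had 136, 185 and 171 CPM with metformin on chow (log2 -0.37 ± 0.25, edgeR adjusted p = 0.485). On 6-week HFD it had 99.8, 161 and 86.8 CPM (-0.12 ± 0.25, 0.819), and on 16-week HFD 100.5, 90.5 and 116 CPM (-0.26 ± 0.25, 0.479). Its metformin and basal ranges were apart on 16-week HFD and overlapped on the other 2 diets, and the 95% intervals were -0.85 to 0.12, -0.61 to 0.36 and -0.74 to 0.23. The basal chow libraries are also those of the insulin comparison that chose Txnip. That choice favours lower values with metformin on chow, so no conclusion is drawn from the tests of Txnip.

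With metformin Gm15441 had lower means on chow and higher means on 16-week HFD than basal livers, and neither difference passed the test. Its basal libraries are also those of the diet comparisons that chose it, high on chow and low on 16-week HFD. That choice favours this pattern, so no conclusion is drawn from the tests of Gm15441. With metformin it had 8.57, 10.2 and 54.1 CPM on chow, where replicate 3 lay within the basal range and the other 2 far below it. On 6-week HFD it had 3.53, 5.17 and 16.3 CPM, with replicate 3 again highest, and on 16-week HFD 11.5, 7.36 and 4.21 CPM, all above the basal libraries. The differences were -1.11 ± 0.52 on chow (edgeR adjusted p = 0.283), -0.36 ± 0.54 on 6-week HFD (0.750) and 1.56 ± 0.61 on 16-week HFD (0.0530). On 16-week HFD it was called by DESeq2 (0.0358) and without metformin replicate 3 (log2 1.86, edgeR adjusted p = 0.0284), in a range of 0.0284 to 0.285. On chow it was called without metformin replicate 3 (log2 -2.49, 0.0118), in a range of 0.0118 to 0.673.

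The response of Gm15441 to metformin on 16-week HFD was 2.67 ± 0.81 above that on chow, and that on 6-week HFD 0.76 ± 0.75 above it (log2). These values hold the basal difference between diets that chose Gm15441, so they are a description with no test. When single libraries were left out the first ran from 2.27 to 4.05, the highest without chow metformin replicate 3. The second ran from -0.20 without 6-week HFD metformin replicate 3 to 2.13 without chow metformin replicate 3, and was 0.35 and 0.39 without replicates 1 and 2 of the chow metformin group. For the other 5 genes, edgeR called 0 of 10 tests of the response by diet, with 0 at an unadjusted p below 0.05 and 0 by DESeq2, where 0.0427% of all genes were called for 6-week HFD and 4.96% for 16-week HFD. The tests of Txnip among these hold the basal chow libraries of the comparison that chose it, and no conclusion is drawn from them.

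Arrdc3 with metformin had 162, 142 and 61.9 CPM on chow, 171, 229 and 241 CPM on 6-week HFD and 139, 272 and 287 CPM on 16-week HFD. Arrdc2 had 13.7, 20.1 and 24.7 CPM on chow, 43.3, 63.1 and 37.7 CPM on 6-week HFD and 42.8, 22.5 and 36.1 CPM on 16-week HFD. All of these ranges overlapped the basal range of the same diet.

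Arrdc4 with metformin had 14.9, 14.2 and 13.3 CPM on chow, 8.11, 7.48 and 11.5 CPM on 6-week HFD and 8.27, 7.93 and 8.66 CPM on 16-week HFD. Against basal livers on 6-week HFD the difference was -0.50 ± 0.16 (edgeR adjusted p = 0.0736). With the replicate number as a block and the groups compared fitted alone it was -0.52 with an adjusted p of 0.0388, without basal replicate 2 it was -0.62 (0.0479) and without metformin replicate 3 it was -0.72 (0.0252), in a range of 0.0252 to 0.344. Between diets under metformin, 2 of 8 tests were called, both lower for Arrdc4. On 16-week HFD it was 1.70-fold below chow (log2 -0.77 ± 0.16, adjusted p = 0.00131), with 20.4% of all genes called, and the call held in all 15 alternatives (0.000302 to 0.0402). On 6-week HFD it was 1.56-fold below chow (log2 -0.64 ± 0.16, adjusted p = 0.0169), with 4.43% of all genes called. Arrdc2 differed by 1.30 ± 0.47 on 6-week HFD, with no overlap of the groups, and was not called (adjusted p = 0.111) except when the groups compared were fitted alone (0.0366), in a range of 0.0366 to 0.328.

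The 6-week call under metformin was lost without chow metformin replicate 1 (edgeR adjusted p = 0.0595), without 6-week metformin replicate 1 or 2 (0.105 and 0.125) and when the groups compared were fitted alone (0.0828), in a range of 0.00393 to 0.125. Under metformin Txnip was -0.68 ± 0.25 and Gm15441 -1.67 ± 0.56 on 16-week HFD against chow, and -0.50 ± 0.25 and -1.53 ± 0.55 on 6-week HFD. Without chow metformin replicate 3 the Gm15441 values were -0.29 and -0.15, and without 6-week HFD metformin replicate 3 the second was -2.48. The rank correlation of log CPM deviation with exon length was -0.61 to -0.13 in the 9 metformin libraries and -0.22 to 0.29 in the other 36. With the length trend removed, Arrdc4 on 16-week HFD differed from basal by -0.11 in place of -0.26 ± 0.17 (edgeR adjusted p = 0.260), and neither was called.

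Genes of the pathways around these members were taken from lists, described by counts of calls and by medians beside that of all genes tested. Diet comparisons of the lists are of basal livers against basal chow livers unless a time is given. The rank correlation of log CPM deviation with GC content was -0.29 to -0.08 in basal chow libraries and 0.17 to 0.32 in basal 16-week HFD libraries. The part of GC content in the list counts between these diets was not tested. Of 31 PPARA targets, the genes of fatty acid oxidation that fasting turns on, 15 fell and 0 rose on 16-week HFD, where 32.3% of all genes were called, with a median of -0.50 against 0.02 for all genes. Cyp4a14 fell by 2.75, Cyp4a10 by 1.92 and Ehhadh, a peroxisomal oxidation enzyme, by 3.06 on the log2 scale (SE 0.26, 0.22 and 0.37). On 6-week HFD 1 rose and 3 fell, where 11% of all genes were called, with a median of -0.05 against 0.01. With metformin on 16-week HFD 18 rose and 0 fell, where 28.4% of all genes were called, with a median of 0.54 against -0.01. Cyp4a14 rose by 1.47 ± 0.25, Fabp1 by 1.18 ± 0.20 and Hadhb by 0.66 ± 0.11. With the length trend removed 14 rose, and without replicate 1 of both groups 14 rose. With metformin on 16-week HFD, 4 of 9 hepatocyte markers were also higher, 3 of 6 endothelial markers lower and 4 of 6 stellate cell markers lower. Their part in this result and in the Gm15441 difference was not tested.

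After insulin on chow, 0 of the 31 PPARA targets were called at 15 and 30 min, where 1.13% and 0.0711% of all genes were called. At 60 min 1 was called (Angptl4, a lipase inhibitor, -1.02 ± 0.16), beside 1.39% of all genes. At 120 min, beside 5.08% of all genes, 5 were called, all of them lower. Plin2, a lipid droplet protein, was among these at -1.08 ± 0.19. On 16-week HFD 4 fell at 30 min, where 3.55% of all genes were called, and 0 were called at the other times. Without replicates 4 to 6 of the 30 min group 14 fell and 1 rose, and with replicate 1 of the basal and metformin groups left out 0 were called.

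Of 23 genes of the ChREBP and MondoA network tested, 8 rose and 4 fell on 16-week HFD, where 32.3% of all genes were called, with a median of 0.16 against 0.02 for all genes. Thrsp, a lipogenic regulator, rose by 5.28 ± 0.60 on the log2 scale. On 6-week HFD 8 rose and 1 fell, where 11% of all genes were called. After insulin on chow, where 1.13% of all genes were called at 15 min, 3 rose at that time, namely Klf10 (1.76 ± 0.29), Thrsp (2.12 ± 0.54) and Fasn (1.02 ± 0.26). At 30 min 0 were called, beside 0.0711% of all genes. On 16-week HFD insulin gave 1 call, a fall of Mlx by 0.26 on the log2 scale (SE 0.07) at 30 min. At that time 3.55% of all genes were called on that diet.

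Of 15 genes of the thioredoxin system, 2 rose and 3 fell on 16-week HFD, a share near the 32.3% of all genes called, with a median of -0.07 against 0.02. Glrx, a glutaredoxin, fell by 0.98 (SE 0.15), Srxn1, which repairs peroxiredoxins, fell by 0.81 (SE 0.20) and Prdx6 rose by 0.48 ± 0.12 on the log2 scale. With metformin on 16-week HFD 8 rose and 0 fell, where 28.4% of all genes were called, among them the peroxiredoxins Prdx2 (0.58 ± 0.11), Prdx5 (0.64 ± 0.13) and Prdx3 (0.42 ± 0.10). With the length trend removed 1 rose, and without replicate 1 of both groups 3 rose. After insulin 0 of the 15 genes were called at any time on either diet. Over these times 0.0711% to 5.08% of all genes were called on chow and 0% to 3.55% on 16-week HFD.

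Of 10 NEDD4-family ligases and their adaptors, 0 rose and 2 fell on 16-week HFD, Ndfip2 by 0.44 (SE 0.11) and Nedd4l by 0.63 (SE 0.18) on the log2 scale, a share below the 32.3% of all genes called. With metformin on 16-week HFD 1 rose and 3 fell, where 28.4% of all genes were called. Of 5 other arrestin-fold genes tested, 0 were called with 16-week or 6-week HFD in basal livers, where 32.3% and 11% of all genes were called. At 30 min of insulin Arrb1 and Arrb2 were higher on 16-week HFD than on chow, by 0.58 ± 0.17 and 0.57 ± 0.16, where 37.3% of all genes were called, and at 120 min Arrb1 by 0.71 ± 0.20, where 28.2% were. With metformin on 16-week HFD 2 rose and 1 fell, where 28.4% of all genes were called, the last being Arrb1, beta-arrestin 1, by 0.90 (SE 0.20). Of 10 glucose transporters and endocytic partners of alpha-arrestins, 2 rose on 16-week HFD, Slc2a1 by 0.89 ± 0.19 and Slc2a2, the main liver glucose transporter, by 0.93 ± 0.24, and 1 fell, Tsg101 by 0.29 (SE 0.10), a share near the 32.3% of all genes called. Slc2a1 was also the 1 gene of this list called on chow at 15, 60 and 120 min, higher by 1.07 ± 0.19 at 15 min and 1.03 ± 0.19 at 60 min. At those times 1.13%, 1.39% and 5.08% of all genes were called.

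Of 14 FoxO-type genes that insulin represses by textbook account, 0 rose and 5 fell on 16-week HFD, a share near the 32.3% of all genes called, among them Igfbp1 by 2.54 (SE 0.54) and G6pc by 1.32 (SE 0.37) on the log2 scale. After insulin on chow 1 fell at 15 min, Bcl6, which fell by 2.15 (SE 0.53), and 0 were called at 30 min. At 60 min 1 rose, and at 120 min 4 rose and 1 fell. The shares of all genes called at 15, 30, 60 and 120 min were 1.13%, 0.0711%, 1.39% and 5.08%. The risers included Trp53inp1 (1.76 ± 0.36 at 60 min and 2.12 ± 0.36 at 120 min). Of 8 inflammasome genes, whose NLRP3 sensor Txnip is known to bind, Il1a fell by 0.90 (SE 0.31) on 16-week HFD. Il1a rose by 1.29 ± 0.27 at 30 min of insulin on that diet. Its mean level was low, at 2.59 CPM in basal chow livers, 1.36 CPM in basal 16-week HFD livers and 3.34 CPM at 30 min. Both differences use the same basal 16-week HFD libraries. No other gene of the list was called in those comparisons, where 32.3% and 3.55% of all genes were called. Summed Kupffer cell and macrophage markers were 222 to 423 CPM in basal 16-week HFD livers and 397 to 1048 CPM at 30 min, none of the 7 markers was called, and their part in the Il1a change was not tested.

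The genes whose group means were most like those of each member were named by the Pearson correlation over the 14 group means of log2 CPM, among 9334 genes of at least 5 CPM on average. For Txnip they were Pim1 (0.81), Entpd5 (0.81), Zfp39 (0.78), Pdk4 (0.77) and Lpin2 (0.75), and over the 45 libraries these had 0.65, 0.51, 0.63, 0.63 and 0.50. Pdk4 encodes pyruvate dehydrogenase kinase and Lpin2 a phosphatidate phosphatase. For Gm15441 they were Ddhd2 (0.99), Acot12 (0.97), Pnpla8 (0.97), Ehhadh (0.96) and Tmem135 (0.96), with 0.95, 0.90, 0.87, 0.92 and 0.83 over the libraries. These highest correlations were larger for Gm15441 than for Txnip. Gm15441 was chosen by its lower counts with diet and ranged 63.1-fold over the libraries, against 8.71-fold for Txnip. The part of that choice and range in the correlations was not tested.

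For Arrdc4 the closest were Ankrd10 (0.93) and Ttc3 (0.92), for Arrdc2 Gsdmd (0.91) and Nmi (0.88), for Arrdc3 Tlr12 (0.90) and Mthfsd (0.90), and for Arrdc1 only Tmem123 (0.64) and H2-Q6 (0.63). Over the 45 libraries the closest of the 5 named for Arrdc3 was Dnajc28, at 0.83. The points share libraries, depth and the 3 basal groups, so these are descriptions with no p.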

How the data were processed

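Polyadenylated RNA from whole liver was sequenced as paired reads of 40 to 50 base pairs in 45 libraries. Per the submitters' processing notes, reads were handled with TopHat 1.4.0, HTSeq and DESeq2 1.0.18 on mm9. The strand setting and the rule for reads on overlapping genes are not given in the sources used here. The authors deposited counts per gene for each library. They also deposited a signal, values normalized with CQN and DESeq2 per the names of its 2 tables, separately for chow and 16-week HFD, so limma was run within each table. The members, the lists and the tests were chosen with earlier results of these data known. Every column of per-sample values was used.

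Counts were fitted across all 45 libraries with edgeR 4.0.16 (R 4.3.3), with TMM scaling, filterByExpr at a minimum count of 10, a quasi-likelihood test and Benjamini-Hochberg adjustment over the 14067 genes tested, called below 0.05. SE is the log2 difference divided by the square root of F, and 95% intervals are 1.96 SE either side. CPM are TMM-scaled, and correlations used log2 CPM with a prior count of 2. Scaling by library total gave 0.871 to 1.12 times these CPM. Named genes are the 6 members, up to 3 called genes of smallest adjusted p per list and comparison, and the 5 genes most like each member. Some genes that this rule names are not reported here. Markers and promoters were read with Python 3.11.15. The fit was tested on simulated counts. Gm15441 was to be tested in the metformin response by diet, but that difference holds the contrast that chose it, so it is only described there.

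Alternatives were DESeq2 1.42.0, limma 3.58.1 on log2(deposited normalized value + 1), no filter, only the groups compared, length and GC trends removed, the replicate number as a block, and leaving out libraries. Of 54 pairs of libraries within groups 0 were identical. Same-numbered libraries deviated together (r over 0.1 for every number) in 5 of 91 pairs of groups, of which 2 were compared with each other: basal and metformin livers of 16-week HFD (r = 0.24, 0.15 and 0.12) and of 6-week HFD (0.41, 0.16 and 0.30), though the labels give these numbers no meaning beyond replicate. Other pairs deviated in opposite directions (r under -0.1 for every number), such as basal 16-week HFD livers and chow livers at 120 min of insulin (-0.33, -0.33 and -0.17). The trend fits with GC, the paired fit of only the basal and metformin groups and the list counts under alternatives were chosen after seeing the data.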

Additional observations from a re-analysis of the deposited data

How the results depend on the processing

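Among the calls of Arrdc genes after insulin on chow, 1 was made, against 0 with no filter, 3 in fits of only the groups compared, 3 with DESeq2, 2 with limma on the deposited normalized values and 0 to 1 when single libraries were left out. After insulin on 16-week HFD 0 were made, against 1 with the replicate number as a block, 1 with the block and the length trend removed and 1 without replicates 4 to 6 at 30 min, which have no partner numbers. From 30 to 120 min 1 was made, against 2 in each of these 3 settings and 0 to 1 when single libraries were left out. Between diets in basal livers 1 was made and 3 in fits of only the groups compared. Between diets after insulin 5 were made, against 3 in fits of only the groups compared, 4 with the replicate number as a block, 6 with the length trend removed (alone, with the block or with GC) and 4 to 5 when single libraries were left out. For metformin 0 were made, against 1 in the fit of only the groups compared with the replicate block, 1 with DESeq2 and 0 to 1 when single libraries were left out. For metformin by diet 0 were made, and 0 in each alternative. Between diets under metformin 2 were made, and 1 to 2 when single libraries were left out. Fits with fewer samples have fewer residual degrees of freedom, and the cause of these differences between settings was not tested. Over the alternatives, none of 148 values of called differences changed sign, while 106 of 1864 values of differences not called and 7 of 807 described values did, the Arrdc2 difference at 30 min on 16-week HFD among them. Of tested values 1933 stayed on the same side of the threshold without moving, 25 gained and 26 lost the call and 28 moved, and of described values 800 stayed and 7 moved. The block changed no other call of the 6 genes than those named here and in the paragraphs above. Counts of 24 reads for Gm15441 and 37 for Arrdc1 in the shallowest cases limit their precision.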
